A study of Mus musculus with 24 samples.

Results

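The genes described are nuclear-encoded subunits of mitochondrial respiratory complexes II, III, IV and V, with the assembly factors of complex II, in the mouse heart after an experimental stroke. They were taken from the deposited expression table by symbol: every gene whose symbol in the platform annotation begins with Sdha, Sdhb, Sdhc, Sdhd, Uqcr, Cox4 to Cox8 or Atp5. This gave 46 of the 24011 named genes: 4 subunits and 4 assembly factors of complex II, 7 subunits of complex III, 17 genes of complex IV, 13 subunits of complex V and 1 pseudogene, Atp5c1-ps. The rule uses symbols only, although it was set with earlier results of these data known. It misses subunits with other symbols, such as Cyc1 of complex III, which is described with the related genes.

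Hearts came from wild-type C57BL/6J mice of 8 weeks, and total cardiac RNA was hybridised to Affymetrix arrays. Ischemic stroke was induced in the brain by middle cerebral artery occlusion (MCAO), and sham-operated mice served as controls. There were 4 groups of 6 arrays: sham at 24 h, MCAO at 24 h, sham at 72 h and MCAO at 72 h after surgery, 24 arrays in all. The labels name no other treatment or genotype. They do not say whether the arrays of a group are different mice, and p-values therefore reflect array-to-array spread, which may be technical.

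Complex II, or succinate dehydrogenase, oxidises succinate in the tricarboxylic acid cycle and passes the electrons to ubiquinone. Complex III hands them to cytochrome c, complex IV passes them from cytochrome c to oxygen, and complex V, the ATP synthase, uses the proton gradient that the chain builds to make ATP. The heart depends on this machinery more than most tissues, and it uses muscle-specific isoforms of several complex IV subunits, Cox6a2, Cox7a1 and Cox8b among them. In bulk tissue, fewer cardiac muscle cells and less RNA per cell cannot be told apart.

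Many genes of these complexes are known to be driven by NRF1 and the ETS factor GABP, so the promoters of those that passed the test at 72 h are shown with the words found in them. RefSeq promoters (build GRCm38.p6, 250 bases before to 50 bases after the start) were matched by gene ID for 35 of the 46 genes, with 38 promoters. Uqcrc2 had no entry. Shown are the 250 bases before the start, 5′ to 3′ on the gene's own strand, of Sdhb at chr4:140961021-140961270 (plus strand), Sdhd at chr9:50603850-50604099 (minus strand), Uqcrfs1 at chr13:30545317-30545566 (minus strand) and Atp5g3 at chr2:73911327-73911576 (minus strand). Cox8b at chr7:140900447-140900696 (minus strand), a muscle isoform whose balance against its partner changed at 72 h, is shown beside them. Capitals mark matches of the searched words on either strand.
Sdhb: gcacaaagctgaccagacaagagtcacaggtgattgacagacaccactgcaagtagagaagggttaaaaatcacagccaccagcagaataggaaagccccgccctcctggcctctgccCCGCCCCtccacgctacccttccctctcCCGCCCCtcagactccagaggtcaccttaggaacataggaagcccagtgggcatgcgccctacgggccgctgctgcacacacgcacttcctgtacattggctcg
Sdhd: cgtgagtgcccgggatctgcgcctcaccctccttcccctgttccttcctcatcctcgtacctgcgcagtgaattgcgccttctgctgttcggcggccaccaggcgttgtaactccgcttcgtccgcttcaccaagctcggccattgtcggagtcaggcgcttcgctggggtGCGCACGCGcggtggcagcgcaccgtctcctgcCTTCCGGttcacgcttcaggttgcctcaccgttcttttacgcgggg
Uqcrfs1: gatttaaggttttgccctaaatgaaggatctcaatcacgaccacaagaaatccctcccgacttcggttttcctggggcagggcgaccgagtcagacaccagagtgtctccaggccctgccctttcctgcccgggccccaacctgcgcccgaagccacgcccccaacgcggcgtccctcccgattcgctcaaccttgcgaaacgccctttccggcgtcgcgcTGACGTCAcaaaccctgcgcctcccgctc
Atp5g3: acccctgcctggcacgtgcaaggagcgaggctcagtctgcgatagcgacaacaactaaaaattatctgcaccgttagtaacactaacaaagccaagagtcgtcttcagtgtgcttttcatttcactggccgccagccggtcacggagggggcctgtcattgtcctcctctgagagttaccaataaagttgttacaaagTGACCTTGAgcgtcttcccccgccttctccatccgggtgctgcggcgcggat
Cox8b: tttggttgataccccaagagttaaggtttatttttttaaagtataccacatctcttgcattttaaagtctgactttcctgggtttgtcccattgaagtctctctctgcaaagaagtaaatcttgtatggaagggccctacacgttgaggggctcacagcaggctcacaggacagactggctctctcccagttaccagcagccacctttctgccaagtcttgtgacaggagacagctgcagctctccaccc

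In Sdhb the capitals mark the SP/KLF word on the other strand in 2 places, and an ETS word lay just past the start, outside the bases shown. In Sdhd they mark an NRF1 word and, on the other strand, an ETS word. An SP/KLF word that reached past the start of Sdhd and an ERR word beyond the start were not marked. The capitals are a CRE word in Uqcrfs1 and an ERR word on the other strand in Atp5g3, whose NRF1 word lay past the start. Cox8b held no match in the bases shown. The words searched over the full 300 bases on both strands were GCGCANGCG for NRF1, CCGGAAG for ETS, AAGATGGCG for YY1, TCAAGGTCA for ERR, GGGGCGG for SP/KLF and TGACGTCA for CRE. Shares count genes, so matches that overlap, as the NRF1 word can on opposite strands, were counted once. The NRF1 word was found in 12 of the 35 respiratory genes (34.3%), against 7.03% of all 27025 genes with a promoter, and the ETS word in 15 of 35 (42.9%) against 9.93%. Among 459 other genes at least as bright on these arrays as the median respiratory gene, the shares were 15.7% and 15%. The SP/KLF word was in 31.4% of the respiratory genes against 25.5% of all genes and 47.1% of the bright genes. The ERR word was in Atp5g3 and Sdhd, 5.71% against 0.466% of all genes and 0.218% of the bright genes. The YY1 word was in Atp5j alone and the CRE word in Uqcrfs1 alone, 2.86% each, against 1.64% and 2.03% of all genes and 4.36% and 3.49% of the bright genes. Median GC content was 57.7% in the promoters of respiratory genes and 52.7% in all promoters. A match describes letters in a window and is no evidence of binding.

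The deposited values are log2 expression, and every change below is a log2 difference between the 6 MCAO and 6 sham arrays of one time. A gene passed the test where limma's p, adjusted by Benjamini-Hochberg over all 24011 genes, was under 0.05. Heart identity was plain in the data: the 7 cardiomyocyte markers had means from 11.69 (Ryr2) to 13.46 (Actc1). As a guide to dim values, 95% of the 1370 olfactory and vomeronasal receptor genes, which a heart should not use, lay under 3.96. Cox7b2 and Cox8c, testis isoforms, and Atp5c1-ps had means under that level, and 43 of the 46 genes did not. Cox5b and Cox7b, subunits of every complex IV, were listed at means of 4.13, close to it, so little can be read from their values. At the bright end the table stops at 13.49, and Actc1 was at 13.49 on every sham array. Whether this limits the changes of the brightest genes was not tested. The respiratory genes varied more between arrays of a group than other genes did, with a median residual SD of 0.236 against 0.164 over all genes.

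Single arrays moved many of these genes together. Measured as the mean of the 46 genes relative to the sham 24 h mean, sham 24 h replicate 3 was at −0.30 and was the lowest of its group for 26 genes, and replicate 5 was at 0.20 and the highest for 24. Sham 72 h replicate 3, at 0.25, was the highest of its group for 25 genes, and MCAO 72 h replicate 4, at 0.10, for 28. MCAO 24 h replicates 5 and 6 had complex III means of −0.48 and −0.26 and complex V means of −0.52 and −0.29, lower than the other arrays of that group. Where leaving out such arrays changed the call of a named gene among the 46, or removed most of a change that rested on them, the value without them stands beside that gene. For genes outside the 46 no such values were taken, so their calls are given for all arrays only.

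**Figure D1:**
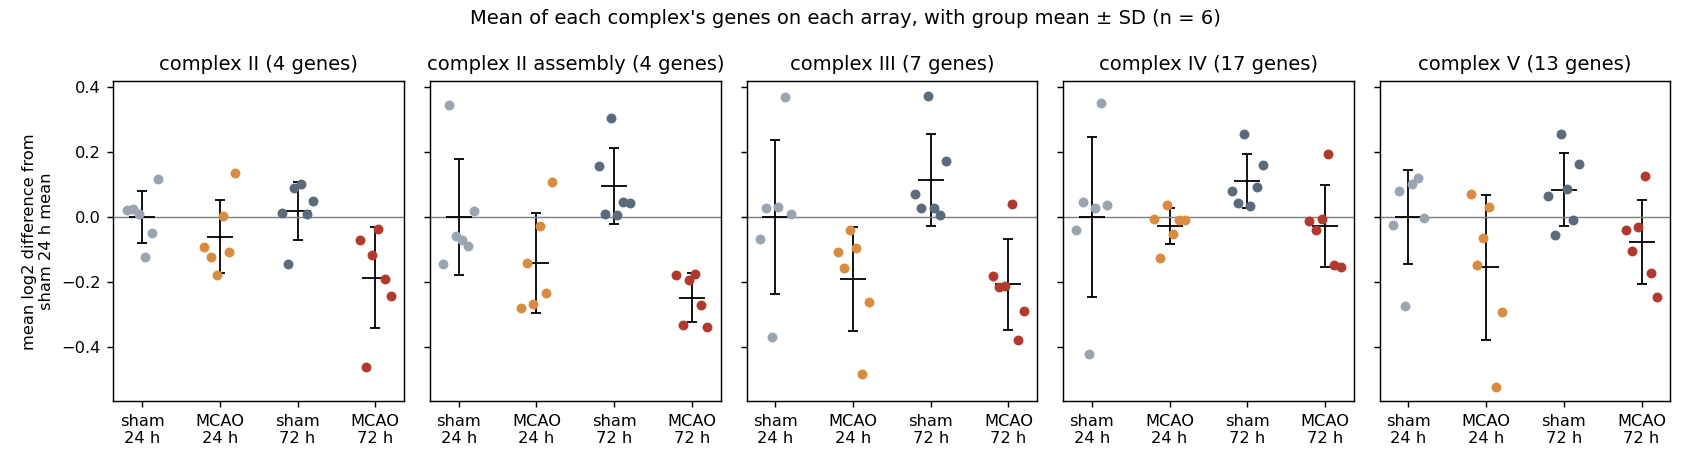
Mean over the genes of each complex on every array, as a log2 difference from the sham 24 h mean (y axis), for the 4 groups (x axis), with group mean ± SD (n = 6). Complex III of MCAO 72 h lies between −0.38 and 0.04, and replicates 5 and 6 are the lowest of the MCAO 24 h arrays in complexes III and V.

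At 72 h the respiratory genes were shifted downward: 39 of 46 had a change below 0 (84.8%), against 49.2% of all genes, with a median change of −0.23 against 0.00. Of the 46, 5 fell: Sdhb and Sdhd of complex II, Uqcrc2 and Uqcrfs1 of complex III, and Atp5g3 of complex V. The share of all genes called lower at 72 h was 1.19%. The falls were small, from 1.23-fold to 1.34-fold. None rose, where limma called 1.17% of all genes higher, and 1 gene (Cox6b2) was higher at an unadjusted p under 0.05 while 15 were lower (32.6%). Over all genes 5.40% were lower at an unadjusted p under 0.05, and of the 603 genes at least as bright as the median respiratory gene 20.4% were. Those bright genes had a median change of −0.02, with 47 called lower and 39 higher.

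At 24 h the median and the signs of the 46 changes showed no such shift, although in complex III 6 of 7 changes were below 0. The median change was −0.04 against 0.01 over all genes, and 26 of 46 genes lay below 0. Relative to the sham 24 h mean, the mean of the 46 genes was −0.09 in MCAO 24 h and −0.10 in MCAO 72 h. MCAO 24 h arrays ran from −0.24 to −0.03 there, and sham 72 h lay at 0.09. Sdhd, the complex II assembly factor Sdhaf4, and Atp5pb and Atp5o of the ATP synthase stalk fell, 4 genes in all, where 10.8% of all genes were called lower. The pseudogene Atp5c1-ps was called higher, where 11.1% of all genes were. The shares of respiratory genes called at 24 h were thus no larger than those of all genes. MCAO 24 h arrays also departed from sham in the dim receptor genes, with an SD of the difference from the sham mean of 0.151 to 0.304 per array, against 0.0919 to 0.129 in sham 24 h and 0.106 to 0.133 in MCAO 72 h. With the first principal component of those receptor genes as a covariate, Sdhd was the 1 respiratory gene still called lower at 24 h. As those genes departed most in MCAO 24 h, the covariate may also remove part of the MCAO change, which was not tested.

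**Figure D2:**
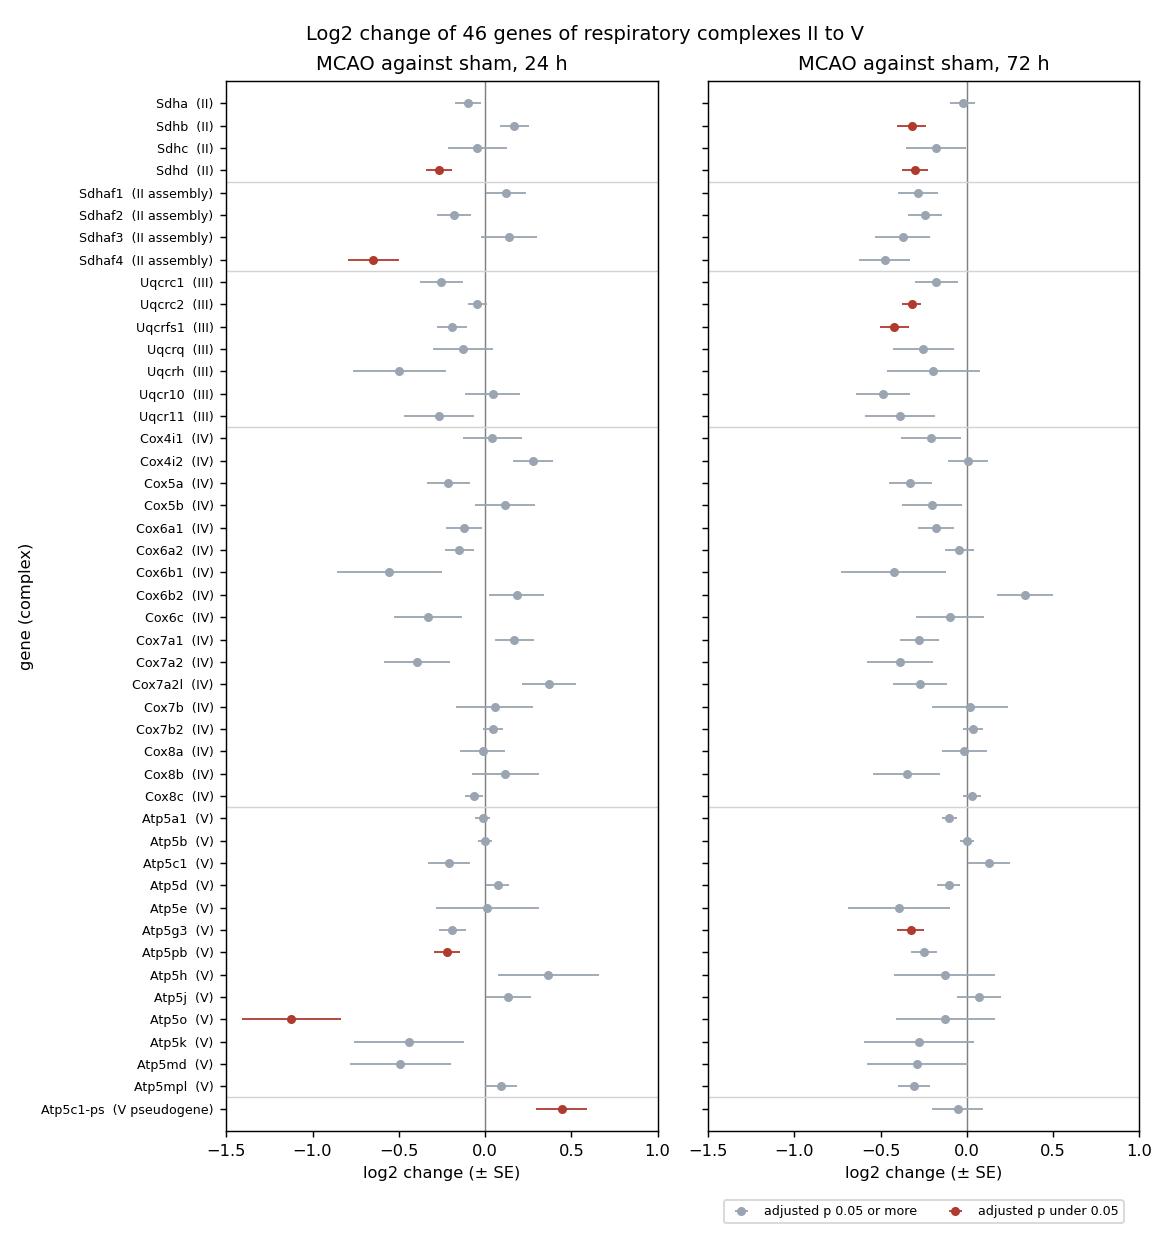
Log2 change ± SE of each of the 46 genes (y axis, grouped by complex) for MCAO against sham at 24 h (left) and 72 h (right). Genes past the adjusted threshold are red and the others grey. At 24 h the changes spread on both sides of 0, from −1.12 to 0.44, and at 72 h 39 of 46 lie below it.

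Complex II holds the flavoprotein Sdha, the iron-sulfur protein Sdhb and the membrane anchors Sdhc and Sdhd. At 72 h both Sdhb and Sdhd fell, and all 4 changes were below 0. Sdhd was 10.49 to 10.64 (median 10.52) on the sham 72 h arrays and 10.13 to 10.35 (median 10.26) on the MCAO arrays. The groups did not overlap, and the change was −0.30 (SE 0.08, adjusted p = 0.0302). At 24 h Sdhd was 10.47 to 10.61 in sham and 10.08 to 10.66 (median 10.19) in MCAO, a change of −0.27 (SE 0.08, adjusted p = 0.0145). There 5 of 6 MCAO arrays lay below every sham array, and replicate 6 lay above them all. The 24 h call of Sdhd held without each of the 24 arrays in turn and was lost in a fit of the 24 h arrays alone (adjusted p = 0.103). The 72 h call was lost without sham 72 h replicate 2, 3, 5 or 6 or MCAO 72 h replicate 2, 5 or 6 (adjusted p up to 0.0861). It was also lost without sham 24 h replicates 3 and 5 and sham 72 h replicate 3 (adjusted p = 0.0636), and without MCAO 72 h replicate 4 and sham 72 h replicate 3 (adjusted p = 0.0728).

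Sdhb, which carries electrons through its iron-sulfur clusters, was 10.93 to 11.29 (median 11.06) in sham 72 h and 10.67 to 10.95 (median 10.75) in MCAO 72 h. Of the 6 MCAO arrays 5 lay below the lowest sham array, and replicate 4 overlapped. The change was −0.32 (SE 0.08, adjusted p = 0.0404). At 24 h its change was 0.17 (SE 0.08, adjusted p = 0.154), with sham 24 h replicate 3 at 10.53 far below the other sham arrays at 10.90 to 11.06. Sdhb was the 1 respiratory gene whose change differed between the times, by −0.49 (SE 0.12, adjusted p = 0.0356), where 0.8% of all genes were called lower and 0.991% higher in that comparison. Both calls are close to the threshold. The 72 h call held in 14 of 24 fits that each left out 1 array, with adjusted p from 0.00804 to 0.116, and was lost without sham 72 h replicate 1, 3, 4, 5 or 6 or MCAO 72 h replicate 1, 2, 3, 5 or 6. Without MCAO 72 h replicate 4 and sham 72 h replicate 3 together the 72 h adjusted p was 0.0776. The difference between times was lost without sham 24 h replicate 4 or any of those arrays except sham 72 h replicate 1 (adjusted p up to 0.0648). Without sham 24 h replicates 3 and 5 and sham 72 h replicate 3 it was −0.38 (adjusted p = 0.0725).

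Sdha, the subunit that binds succinate, was at 12.10 ± 0.11 in sham 72 h and 12.08 ± 0.03 in MCAO 72 h (SD, n = 6), a change of −0.02 (SE 0.07, adjusted p = 1). At 24 h it was −0.10 (SE 0.07, adjusted p = 0.357). Sdhc changed by −0.04 at 24 h and −0.18 at 72 h (SE 0.17 each, adjusted p = 0.882 and 0.917), the latter with 1 MCAO array at 9.51 and the others at 10.51 or more. The anchors of the complex, Sdhc and Sdhd, thus gave different calls, and whether their changes differed was not tested.

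All 4 assembly factors of complex II had negative changes at 72 h, from −0.48 to −0.24. None passed limma's adjusted test there with all arrays, and 4 had an unadjusted p under 0.05. Sdhaf2, Sdhaf3 and Sdhaf4 were called with array weights and in a fit of the 72 h arrays alone. Sdhaf4, which helps load the flavoprotein, was at 4.94 to 5.67 in sham 72 h and 4.55 to 4.79 in MCAO 72 h without overlap, a change of −0.48 (SE 0.15, adjusted p = 0.106). It passed at 72 h without MCAO 24 h replicates 5 and 6 (adjusted p = 0.0467), with array weights (0.01) and with the 72 h arrays alone (0.0221). At 24 h it was at 4.70 to 5.57 in sham and 3.96 to 4.67 in MCAO, again without overlap, and fell by 0.65 (SE 0.15, adjusted p = 0.00374). Sdhaf4 was the 1 respiratory gene with separate groups at 24 h, where 2.65% of all genes had every MCAO array below every sham array. Its mean of 4.79 is dim, and with the receptor component as a covariate its 24 h change was −0.05 (adjusted p = 0.945). Sdhaf3, a factor for the iron-sulfur subunit, was also separate at 72 h, with a change of −0.37 (adjusted p = 0.343). Sdhaf1 changed by −0.28 (SE 0.12, adjusted p = 0.301) and Sdhaf2, which attaches flavin to Sdha, by −0.24 (SE 0.10, adjusted p = 0.269). For Sdhaf2 the adjusted p was 0.0222 with array weights and 0.0366 with the 72 h arrays alone.

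In complex III 7 of 7 changes were below 0 at 72 h, with a median of −0.32, and 2 genes fell. At 24 h 6 of 7 were below 0, with a median of −0.19, and none of the 7 was called. Uqcrc2, core protein 2, had the lowest adjusted p of the 46 genes: 11.77 to 11.95 (median 11.91) in sham 72 h and 11.43 to 11.71 (median 11.57) in MCAO 72 h. The arrays did not overlap, and the change was −0.32 (SE 0.05, adjusted p = 0.0014), 1.25-fold lower. At 24 h the same gene was at 11.64 to 11.95 in sham and 11.70 to 11.86 in MCAO, a change of −0.04 (SE 0.05, adjusted p = 0.603). The change at 72 h minus that at 24 h was −0.28 (SE 0.08, adjusted p = 0.0637), short of the threshold with all arrays and past it without MCAO 24 h replicate 1, MCAO 72 h replicate 1, sham 24 h replicate 3 or sham 72 h replicate 3 (lowest adjusted p 0.0459).

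Uqcrfs1, the Rieske iron-sulfur protein that takes electrons from ubiquinol, had the largest fall among the 5 called genes at 72 h. It was 8.66 to 9.13 (median 8.78) in sham and 8.24 to 8.55 (median 8.38) in MCAO, without overlap, a change of −0.42 (SE 0.09, adjusted p = 0.00693), 1.34-fold lower. At 24 h its change was −0.19 (SE 0.09, adjusted p = 0.113), with 4 of 6 MCAO arrays below the lowest sham array. It passed at 24 h without MCAO 24 h replicate 6 (−0.24, adjusted p = 0.0397) and without replicates 5 and 6 (−0.28, adjusted p = 0.0233). Uqcrc2 and Uqcrfs1 kept their 72 h calls in all 24 fits that left out 1 array and under each other setting tried. Of those settings, quantile normalization and median centring could change little, since the sorted values of the arrays already nearly matched. In all, 6 respiratory genes had every MCAO 72 h array below every sham 72 h array, namely Sdhd, Sdhaf3, Sdhaf4, Uqcrc2, Uqcrfs1 and Atp5pb, where 1.77% of all genes did.

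**Figure D3:**
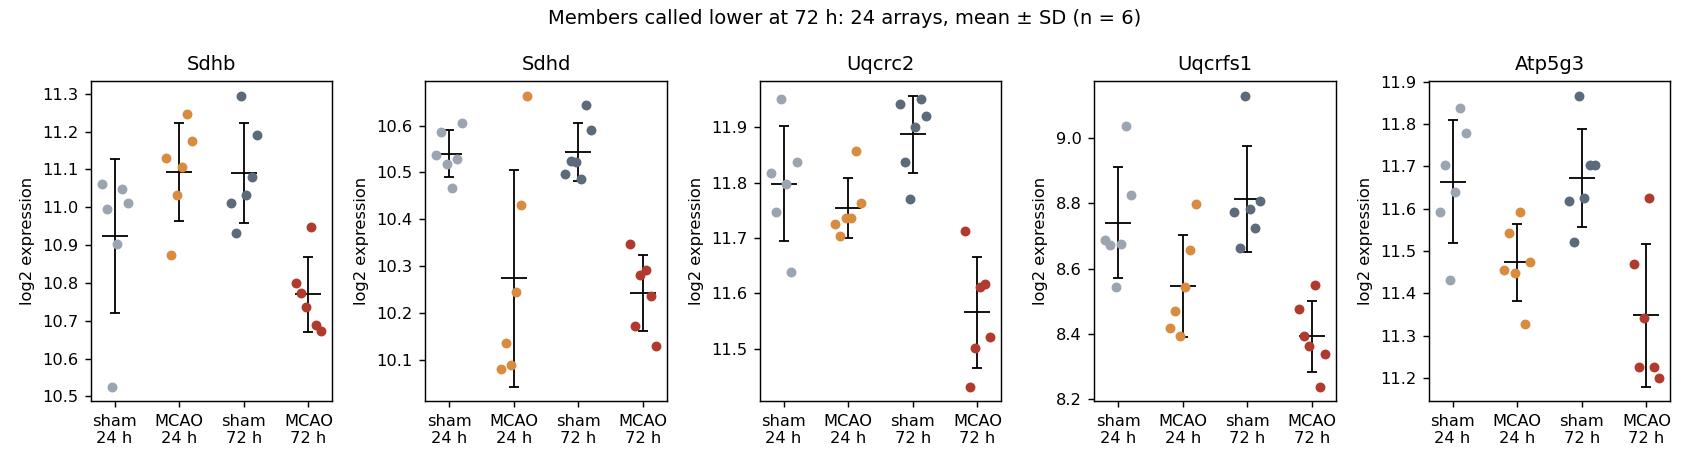
Log2 expression (y axis) of the 5 genes that fell at 72 h on all 24 arrays, by group (x axis), with mean ± SD (n = 6). Sdhd, Uqcrc2 and Uqcrfs1 separate the 72 h groups completely, while in Sdhb and Atp5g3 MCAO 72 h replicate 4 reaches into the sham range.

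The other complex III genes did not pass the test with all arrays. Uqcr10, a small subunit, had the largest change at 72 h, −0.49 (SE 0.16, adjusted p = 0.127), from 9.40 to 10.01 in sham and 8.96 to 9.49 in MCAO, with 5 of 6 MCAO arrays below all sham arrays. It passed without sham 24 h replicate 3 (adjusted p = 0.0288), without that array, sham 24 h replicate 5 and sham 72 h replicate 3 (0.0144), with array weights (0.00885) and in a fit of the 72 h arrays alone (0.0134). Uqcrc1, core protein 1, changed by −0.25 at 24 h (SE 0.12, adjusted p = 0.151) and −0.18 at 72 h (SE 0.12, adjusted p = 0.779). Uqcrh, the hinge protein near cytochrome c, was set by single arrays at 24 h: its MCAO values ran from 8.93 to 11.32 with a median of 11.24, equal to the sham median. Replicates 5 and 6 held the values 8.93 and 10.22, and the change of −0.50 (SE 0.27) had an adjusted p of 0.194. Without these 2 arrays it was 0.07 (adjusted p = 0.62). With all arrays no complex III gene taken by the symbol rule passed limma's test at 24 h. Among these genes Uqcrfs1 alone had an unadjusted p under 0.05. Cyc1, which the rule does not take, was called lower at both times and is described below.

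No complex IV gene passed the test at either time. Among its 17 genes, 12 changes were below 0 at 72 h with a median of −0.18, and 8 at 24 h with a median of 0.04. At an unadjusted p under 0.05, 2 were lower (Cox5a and Cox7a1) and 1 higher (Cox6b2) at 72 h, and 2 were higher (Cox4i2 and Cox7a2l) at 24 h. Cox5a, a matrix-side subunit, was 10.27 to 10.82 in sham 72 h and 9.86 to 10.36 in MCAO 72 h, with 5 of 6 MCAO arrays below every sham array and a change of −0.33 (SE 0.13, adjusted p = 0.236). Cox7a1 changed by −0.28 (SE 0.11, adjusted p = 0.299). With array weights both would be called, at adjusted p = 0.0425 and 0.0464. Cox4i1, the common subunit 4, was at 11.48 ± 0.26 in sham 72 h and 11.28 ± 0.14 in MCAO 72 h, a change of −0.21 (SE 0.17, adjusted p = 0.867).

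Cox4i2, the isoform of subunit 4 known from lung and low oxygen, was 5.37 to 6.04 in sham 24 h and 5.40 to 6.15 in MCAO 24 h, a change of 0.28 (SE 0.11, adjusted p = 0.0846). It passed without MCAO 24 h replicate 2 or sham 24 h replicate 5 (adjusted p = 0.0187 and 0.0134), and without sham 24 h replicates 3 and 5 and sham 72 h replicate 3 (adjusted p = 0.0357). At 72 h it was 0.01 (SE 0.11, adjusted p = 1). Cox7a2l has been described as linking complexes III and IV into supercomplexes, an activity that was not measured here. It changed by 0.37 at 24 h (SE 0.16, adjusted p = 0.096) and −0.27 at 72 h (SE 0.16, adjusted p = 0.637). It passed at 24 h without MCAO 24 h replicate 2 (adjusted p = 0.0214). Its change differed between times by −0.64 with an adjusted p of 0.131, and of 0.0462 without sham 72 h replicate 3.

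Cox6b1, which faces cytochrome c from the intermembrane space, had the widest spread of complex IV at 24 h. Its MCAO values ran from 7.27 (replicate 6) to 9.93, with a median of 9.76 against 9.90 in sham, and the change of −0.56 (SE 0.30) had an adjusted p of 0.199. Without MCAO 24 h replicates 5 and 6 the change was −0.01 (adjusted p = 0.969). At 72 h 5 of 6 MCAO arrays lay below every sham array, for a change of −0.42 with an adjusted p of 0.796. Cox6a1 changed by −0.12 and −0.18 at 24 h and 72 h, and Cox6a2, the muscle isoform, by −0.15 and −0.04, with adjusted p of 0.216 or more in each.

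For 5 pairs of isoforms of one subunit, the log2 difference within each array was compared between MCAO and sham, which shows only that the 2 genes changed unequally. Of 10 comparisons, 3 passed an exact two-sided permutation test over 924 splits with p adjusted over the 10, where the smallest raw p possible is 0.00216. At 24 h Cox7a1, the muscle isoform of subunit 7a, gained on the ubiquitous Cox7a2: the difference was 3.38 to 3.75 in sham and 3.78 to 4.93 in MCAO, without overlap, a shift of 0.56 (exact adjusted p = 0.0108). Cox7a2 itself changed by −0.39 and Cox7a1 by 0.17 there, with adjusted p of 0.148 and 0.305. At 72 h the pair shifted by 0.11 (exact adjusted p = 0.233). Without MCAO 24 h replicates 5 and 6 the 24 h shift was 0.44.

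At 72 h the muscle isoform Cox8b lost ground to the ubiquitous Cox8a. The difference was 2.21 to 2.88 in sham and 1.92 to 2.23 in MCAO, a shift of −0.33 (exact adjusted p = 0.0216), with all 6 MCAO arrays below the sham mean. Cox8b was 11.67 ± 0.28 in sham and 11.32 ± 0.21 in MCAO, and Cox8a 9.24 ± 0.11 and 9.23 ± 0.20 (SD, n = 6). Without MCAO 72 h replicate 1, 2, 3 or 5 or sham 72 h replicate 3 the adjusted p rose to between 0.0505 and 0.0577, and without that sham array the shift was −0.24. Cox6b2, a testis isoform that is dim here at a mean of 4.31, gained on Cox6b1 by 0.76 at 72 h (exact adjusted p = 0.0108), from −6.38 to −5.64 in sham to −5.35 to −4.65 in MCAO. At 24 h that pair shifted by 0.74 (exact adjusted p = 0.233), with a widest MCAO value of −2.48, and by 0.05 without MCAO 24 h replicates 5 and 6. The pairs Cox6a2 and Cox6a1 (−0.03 and 0.13 at 24 h and 72 h) and Cox4i2 and Cox4i1 (0.24 and 0.21) did not pass, with exact adjusted p of 0.189 or more. Without sham 24 h replicate 3 the 24 h shift of Cox4i2 against Cox4i1 was 0.38 and passed (exact adjusted p = 0.0162).

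**Figure D4:**
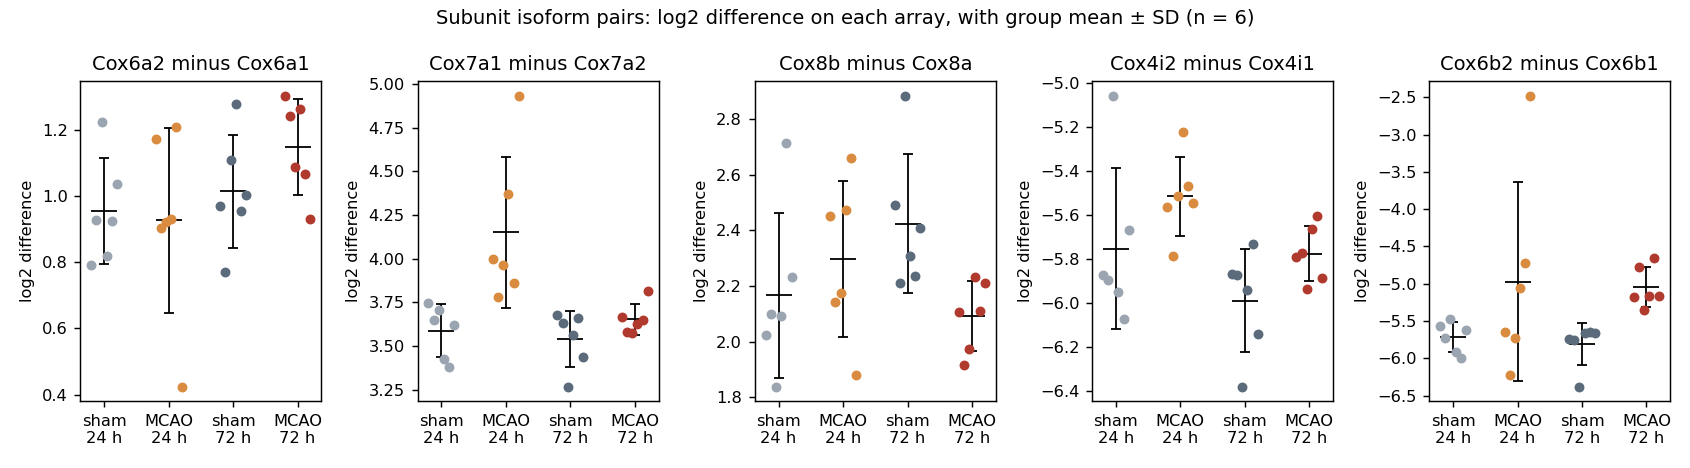
Log2 difference between the isoforms of each pair (y axis) on every array, by group (x axis), with mean ± SD (n = 6). MCAO 24 h lies above sham 24 h for Cox7a1 minus Cox7a2, MCAO 72 h lies low for Cox8b minus Cox8a, and all 6 MCAO 72 h arrays lie above sham 72 h for Cox6b2 minus Cox6b1.

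Of the 13 subunits of complex V, 1 fell at 72 h and 11 had changes below 0. Atp5g3 encodes subunit c, whose ring turns in the membrane as protons pass, and it was the one subunit c gene among the 46. It was 11.52 to 11.87 (median 11.66) in sham 72 h and 11.20 to 11.62 (median 11.28) in MCAO 72 h, a change of −0.32 (SE 0.08, adjusted p = 0.0217), 1.25-fold lower. Of the MCAO arrays 5 lay below all sham arrays, and replicate 4 overlapped. The call was lost without MCAO 72 h replicate 2, 5 or 6 or sham 72 h replicate 3 or 5 (adjusted p up to 0.0697). At 24 h the change was −0.19 (SE 0.08, adjusted p = 0.0823), and it passed without sham 24 h replicate 3 (adjusted p = 0.0332) and without MCAO 72 h replicate 4 and sham 72 h replicate 3 (adjusted p = 0.0482).

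In the peripheral stalk, which holds the F1 head still, Atp5pb (subunit b) fell by 0.22 at 24 h (SE 0.07, adjusted p = 0.0368). It was 10.56 to 10.81 in sham and 10.11 to 10.67 in MCAO, with replicates 5 and 6 the lowest at 10.11 and 10.24. Without these 2 arrays the change was −0.10 (adjusted p = 0.246), and with the receptor component as a covariate it was 0.17 (adjusted p = 0.38). The call was also lost without MCAO 24 h replicate 5 or 6 or sham 24 h replicate 4, 5 or 6 (adjusted p up to 0.0907). Without sham 24 h replicates 3 and 5 and sham 72 h replicate 3 the adjusted p was 0.136. At 72 h its groups were separate, 10.69 to 10.80 against 10.39 to 10.64, with a change of −0.25 (SE 0.07, adjusted p = 0.085). It passed at 72 h without MCAO 24 h replicate 5 (adjusted p = 0.0268) or replicates 5 and 6 (0.00611), since all 4 groups share one estimate of the spread. It also passed when the fit held only the 72 h arrays (adjusted p = 0.0106) and with array weights (adjusted p = 0.00209).

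Atp5o, the OSCP subunit that ties the stalk to the head, had the largest change of all 46 genes, −1.12 at 24 h (SE 0.29, adjusted p = 0.00757), 2.18-fold lower. It was 6.43 to 7.55 (median 6.96) in sham and 4.25 to 6.57 (median 6.06) in MCAO. The lowest value was again that of replicate 6, followed by replicates 2 and 5 at 5.48 and 5.78. The call held without each array in turn, with changes from −1.27 to −0.81, was −0.14 (adjusted p = 0.917) with the receptor component as a covariate, and missed the threshold in a fit of the 24 h arrays alone (adjusted p = 0.0598). At 72 h it was 6.97 ± 0.30 in sham and 6.85 ± 0.32 in MCAO (SD, n = 6), a change of −0.13 (SE 0.29, adjusted p = 1). The difference between the times, 1.00 (SE 0.41), had an adjusted p of 0.194.

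Atp5mpl, a small membrane subunit, changed by −0.31 at 72 h (SE 0.09, adjusted p = 0.0928), from 10.80 to 11.12 in sham to 10.48 to 10.88 in MCAO, and by 0.09 at 24 h. It passed at 72 h without MCAO 72 h replicate 4 or sham 24 h replicate 3 (adjusted p = 0.0488 and 0.0261). So it did with array weights (adjusted p = 0.013) and in a fit of the 72 h arrays alone (adjusted p = 0.0219). The catalytic core had the smallest standard errors of the 46 genes. Atp5b, the subunit that makes ATP, changed by 0.00 at both times (SE 0.04), and Atp5a1 by −0.01 and −0.10 (SE 0.05, adjusted p = 0.848 and 0.366). Atp5a1, unlike Atp5b, was called lower at 72 h with array weights. Both genes lie near the top of the scale, and whether that narrows their spread was not tested. Atp5k and Atp5md, small subunits of the membrane part, changed by −0.44 and −0.49 at 24 h (SE 0.32 and 0.29), with adjusted p of 0.341 and 0.243. In both, MCAO 24 h replicate 5 was far below the rest, at 8.71 and 8.01. Atp5c1-ps was called higher at 24 h, by 0.44 (SE 0.15, adjusted p = 0.0341), from 2.97 to 3.55 in sham to 3.31 to 4.54 in MCAO. This pseudogene is a near copy of Atp5c1 and lies under the receptor level, so its value is uncertain. Its call was lost without MCAO 24 h replicate 2, 5 or 6 or sham 24 h replicate 2, 3 or 5 (adjusted p up to 0.0833), and without MCAO 24 h replicates 5 and 6 the change was 0.21 (adjusted p = 0.163). Without sham 24 h replicates 3 and 5 and sham 72 h replicate 3 it was 0.33 (adjusted p = 0.174). Atp5c1, the gene of the central shaft, changed by −0.21 and 0.13 (adjusted p = 0.227 and 0.908).

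The remaining genes are given by their range. Over the 17 genes outside the naming rule, which include Uqcrq, Uqcr11, Cox6c, Atp5d, Atp5e, Atp5h and Atp5j, changes ran from −0.49 to 0.37 at 24 h and from −0.39 to 0.13 at 72 h, and none passed limma's test at either time. At an unadjusted p under 0.05, 2 were lower at 72 h, Sdhaf3 and Atp5a1, and 0 at 24 h. Between the sham groups, 72 h against 24 h, no respiratory gene passed limma's test, 2 (Uqcr10 and Cox7a2l) were higher at an unadjusted p under 0.05, and 0.0208% of all genes were called. There, 37 of 46 changes were above 0 with a median of 0.09. On the mean of the 46 genes, relative to sham 24 h, MCAO 24 h lay at −0.09 (−0.24 to −0.03) and MCAO 72 h at −0.10 (−0.22 to 0.10). Sham 72 h lay at 0.09 (−0.00 to 0.25), so the 72 h changes also carry the higher level of their sham group.

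Genes that work beside these subunits were listed by role, and their counts stand against shares of all genes called lower of 10.8% at 24 h and 1.19% at 72 h. Calls of these genes, and of the cell type markers below, were not followed through the other settings. None of the 13 mitochondrially encoded subunits matched a symbol in the table, and they are not analysed here. Cyc1, the cytochrome c1 of complex III, fell at both times, by 0.41 at 24 h (SE 0.14, adjusted p = 0.0408) and 0.53 at 72 h (SE 0.14, adjusted p = 0.0476), and at 72 h its groups were separate. Cycs, cytochrome c, was dim and changed by −0.34 at 72 h (adjusted p = 0.181). Of 6 assembly factors of complex III, 2 fell at both times and 0 rose. Bcs1l, which inserts the Rieske protein Uqcrfs1, fell from 7.60 ± 0.16 to 6.87 ± 0.24 at 72 h (SD, n = 6), a change of −0.73 (SE 0.13, adjusted p = 0.00152), and by 0.45 at 24 h (adjusted p = 0.0141). Uqcc1 fell by 0.55 at 72 h (adjusted p = 0.00922) and 0.40 at 24 h (adjusted p = 0.0193).

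Of 24 measured factors for complex IV assembly and heme A, 3 fell at 72 h and 0 rose, although no subunit of the complex was called. Taco1, which activates translation of a mitochondrial complex IV subunit, fell by 0.60 at 72 h (SE 0.08, adjusted p = 0.000171) and by 0.28 at 24 h (SE 0.08, adjusted p = 0.02). Higd1a, a low-oxygen gene whose protein binds complex IV, fell from 5.45 ± 0.37 to 4.51 ± 0.13 at 72 h (adjusted p = 0.000616) and was 0.32 higher at 24 h (adjusted p = 0.128). Its changes differed between the times (adjusted p = 0.00711). Coa3 fell by 0.65 at 72 h (adjusted p = 0.0371). At 24 h Coa5, Cox11, Cox14 and Taco1 fell and Surf1 rose, with Coa5 at −0.81 (SE 0.11, adjusted p = 2.48e-05). Of 3 factors for complex V, Tmem70 fell at 72 h, by 0.29 (adjusted p = 0.0335), and none passed at 24 h, where 1 had an unadjusted p under 0.05.

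Around the chain, 3 of 13 measured tricarboxylic acid cycle genes fell at each time and 0 rose, where 10.8% of all genes fell at 24 h and 1.19% at 72 h. These genes are bright. Of the 603 genes at least as bright as the median respiratory gene, 84 were called lower at 24 h and 47 at 72 h. Dlst and Dld, parts of the 2-oxoglutarate dehydrogenase complex, fell at both, by 0.33 each at 72 h (adjusted p = 0.0113 and 0.0144). Idh3a fell at 72 h by 0.28 (adjusted p = 0.00354) and Idh3b at 24 h by 0.22 (adjusted p = 0.00853). Of 8 genes of energy transfer, Ckmt2 and Ckm, the mitochondrial and cytosolic creatine kinases of muscle, fell at 72 h by 0.41 (adjusted p = 0.000222) and 0.66 (adjusted p = 0.00358). In that list Ckmt1, which is dim, fell and the outer-membrane channel Vdac1 rose at 24 h, by 0.26 and 0.15 (adjusted p = 0.02 and 0.0457). Of 18 transcription regulators of these genes, Tfb1m fell at 72 h by 0.48 (adjusted p = 0.00797). At 24 h 4 rose and 2 fell, where 11.1% of all genes rose and 10.8% fell: Polg, Tfb2m, Nrip1 and Esrrb rose, and Ppargc1b (−0.53, adjusted p = 0.00597) and Esrrg fell. Nrf1 and Gabpa, whose words were searched in the promoters, changed by 0.07 and 0.03 at 72 h (adjusted p = 1 each).

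Of 49 measured markers of cell types that a heart sample can hold, 9 were called lower and 6 higher at 24 h, and 1 lower (Kdr) and 2 higher (Pecam1 and Cidea) at 72 h. The summed linear level of the 7 cardiomyocyte markers was 53112 to 56019 in sham 24 h and 47686 to 54039 in MCAO 24 h, and 52818 to 56520 and 47927 to 53464 at 72 h. Myh6 and Ryr2 fell at 24 h, and none of the 7 was called by limma at 72 h, where 6 changes were below 0 with a median of −0.12. The 3 smooth muscle markers summed to 1031 to 1791 in sham 24 h and 712.0 to 937.6 in MCAO 24 h, without overlap, and Acta2 and Tagln fell there, by 0.84 and 0.50 (adjusted p = 0.00234 and 0.0437). At 72 h the smooth muscle sums were 1381 to 2124 and 803 to 1864, and none of the 3 was called.

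Fibroblast sums overlapped, at 3556 to 4428 in sham 24 h and 3366 to 4177 in MCAO 24 h and at 4039 to 5133 and 4133 to 5282 at 72 h, with the collagen genes Col1a1 and Col1a2 lower at 24 h by 0.83 and 0.91 (adjusted p = 0.0342 and 0.016). At 72 h none of the 5 fibroblast markers was called. Their changes there ran from −0.91 (Col1a1) to 0.47 (Pdgfra), with 2 lower and 1 higher at limma's unadjusted p under 0.05. The 5 endothelial markers summed to 3222 to 3649 and 2897 to 3345 at 24 h and to 2838 to 3364 and 2714 to 3137 at 72 h, with Kdr lower and Pecam1 higher at both times and Tie1 higher at 24 h. Macrophage sums were 493.7 to 648.1 and 364.8 to 632.0 at 24 h, where Cd163 rose by 0.66 (adjusted p = 0.00193), and 476.2 to 1075 and 487.9 to 762.8 at 72 h. Neutrophil sums were 43.5 to 47.9 and 45.2 to 59.5 at 24 h, with Mmp8 higher, and 42.7 to 47.8 and 42.8 to 50.2 at 72 h, all 4 markers having means under the receptor level. The 5 skeletal muscle markers, also dim, summed to 64.2 to 72.4 and 58.0 to 64.8 at 24 h, with Tnnt3 and Myh4 lower, and to 63.1 to 65.7 and 63.1 to 68.3 at 72 h.

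Of the 4 brown adipocyte markers, whose cells also use Cox7a1 and Cox8b, Cidea rose at both times. Their sum was 208.8 to 281.2 in sham 24 h and 236.6 to 387.3 in MCAO 24 h, and 200.1 to 261.6 and 244.4 to 425.5 at 72 h, while the defining Ucp1 stayed at means of 3.62 to 3.73, under the receptor level. Adipocyte sums were 2156 to 3225 and 2395 to 4058 at 24 h and 2467 to 3261 and 2048 to 3081 at 72 h, with the defining Adipoq at group means of 3.33 to 3.42. The 4 atrial markers summed to 2108 to 5888 and 2214 to 13773 at 24 h and 2785 to 8706 and 3690 to 9018 at 72 h. The 3 measured erythroid markers summed to 48.9 to 177.8 and 55.2 to 104.1 at 24 h, with Hbb-bs, which is dim, higher, and to 51.4 to 115.9 and 43.8 to 79.4 at 72 h. The highest sums, 177.8 and 115.9, were those of sham 24 h replicate 5 and sham 72 h replicate 3. The same arrays were the highest of their groups for 24 and 25 respiratory genes, and the link was not tested. The part of cell mix in the changes of the respiratory genes was not tested.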

How the data were processed

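Total RNA of 24 mouse heart samples, 6 per group, was measured on Affymetrix arrays. The deposited series table holds log2 values that the authors had normalized, per the values: sorted values differed between arrays by at most 0.00191, as after quantile normalization. The method of summarization, the software and the build: not given in the sources used here. Of tools, the submitters' processing notes list HOMER alone, with no version. Values ran from 2.78 to 13.5 (median 4.16), and no array background was used. Arrays were grouped by titles and time labels, although the free text of the 72 h samples names 24 h.

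Of 24973 identifiers, 24015 had 1 gene symbol, 0 several and 958 none. The identifier with the highest mean was kept for 4 repeated symbols, which left 24011 genes. limma 3.58.1 in R 4.3.3 (lmFit and eBayes on the means of all 4 groups over 24 arrays, residual degrees of freedom 20) gave moderated standard errors and p-values, adjusted by Benjamini-Hochberg over all genes at 0.05. The fit was tested on simulated data. Isoform differences were tested by exact permutation.

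The genes and lists were chosen with earlier results of these data known, and so support no result independently. Named were genes called in any contrast, the 3 with the smallest p of each complex at each time, the isoform pairs and subunit c, and of each related list up to 4 called genes. Other settings tried were quantile normalization, median centring, a trended robust prior, a filter on dim genes, every identifier as a row, array weights, only the groups compared, the replicate number as a block, arrays left out, and a receptor-gene component as covariate. Fits without sets of arrays that stood apart were added after seeing the data. The number of arrays limits the precision.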

Additional observations from a re-analysis of the deposited data

Results flagged for a closer look

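Of 136 groups of 6 arrays checked over the 29 named genes and 5 isoform pairs, 19 held an array that stood apart by Dixon's test, where chance flags about 1 in 20. Sham 72 h replicate 3 was apart in 6 of them: high for Uqcrfs1 (9.13), Cox4i1 (12), Cox5a (10.8) and Atp5o (7.54), and low for Cox7a2l (5.24) and for Cox6b2 minus Cox6b1 (−6.38). MCAO 24 h replicate 6 was low for Uqcrc1 (11.4), Cox6a2 (12.4) and Cox6b1 (7.27) and high for Sdhaf1 (6.98), and MCAO 24 h replicate 5 was low for Sdha (11.6). Sham 24 h replicate 3 was low for Sdhb (10.5) and Cox6a1 (11.5). Sham 72 h replicate 2 was low for Sdha (11.9) and Sdhaf2 (7.50). In MCAO 72 h, replicate 2 was low for Sdhc (9.51), replicate 4 high for Cox4i2 (5.79), and replicate 6 low for Cox7a2l (5.31) and high for Cox7a1 minus Cox7a2 (3.82). All are log2 values or log2 differences.

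The MCAO change of Sdhb differed between the times by −0.49 (limma adjusted p = 0.0356), with every MCAO 72 h array below the sham mean and 5 of 6 MCAO 24 h arrays above it.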

How the results depend on the processing

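At 72 h, 5 genes fell; 14 did with array weights, 11 with only the groups compared, and 3 without MCAO 72 h replicate 4 and sham 72 h replicate 3 together (Atp5g3, Uqcrc2 and Uqcrfs1). No respiratory gene was called higher at 72 h in any setting. At 24 h the 4 lower calls became 1 with only the groups compared (Sdhaf4) and 1 with the receptor component (Sdhd). The higher call of Atp5c1-ps was gone (0 called) with the filter on dim genes, array weights, only the groups compared and the receptor component. With that component Atp5pb turned to 0.17 and Atp5c1-ps to −0.043 at 24 h. The call of Sdhb between the times was gone (0 called) with the filter, array weights, the receptor component and without sham 24 h replicates 3 and 5 and sham 72 h replicate 3. The median change of the 46 genes between times, −0.08, was −0.20 with the receptor component.

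Over all genes, 5237 were called at 24 h, against 3439 with the filter, 3259 with array weights, 2194 with only the groups compared and 319 with the receptor component. At 72 h 565 were called, against 1905 with array weights, 1410 with only the groups compared and 1103 without MCAO 24 h replicates 5 and 6. Between the times 430 were called, against 218 with the filter, 1079 without MCAO 24 h replicates 5 and 6, 5 with the receptor component, 128 without the 3 sham arrays and 253 without MCAO 72 h replicate 4 and sham 72 h replicate 3. Between the shams 5 were called, against 27 with array weights, 1 with only the groups compared and 1 without the latter pair.

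Same-numbered arrays did not deviate together (r from −0.0533 to 0.00678 at 24 h, −0.0695 to 0.141 at 72 h and −0.229 to 0.151 between the shams). This gave no sign that the numbers pair the samples, although a small shared effect could be missed. With the replicate block, 3 genes fell at 72 h (Sdhd, Uqcrc2 and Uqcrfs1), 0 respiratory genes were called between the times and 1 gene between the shams. In the sign-flip test with the replicate block, whose smallest raw p is 0.0312, the isoform shifts of 0.56, −0.33 and 0.76 each had an adjusted p of 0.0781.

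Leaving out each array in turn gave 2 to 7 lower calls at 72 h, 3 to 5 lower and 0 to 2 higher at 24 h, 0 to 2 between the times, and 0 between the shams. Medians of the 46 genes then ran from −0.25 to −0.17 at 72 h, −0.12 to −0.03 at 24 h, −0.16 to −0.03 between the times and 0.03 to 0.11 between the shams. Counts over all genes ran from 393 to 821 at 72 h, 4234 to 5867 at 24 h, 197 to 1012 between the times and 1 to 6 between the shams. The shift of Cox8b against Cox8a at 72 h ran from −0.37 to −0.24 and that of Cox4i2 against Cox4i1 at 24 h from 0.17 to 0.38. The cause of these differences was not tested.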
